A study of Mus musculus with 6 samples.

Results

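A set of 9 genes used as markers or transducers of alternative macrophage activation were followed across 6 RNA libraries, 9 of the 54532 genes in the deposited table. They were taken by symbol: *Chil3*, *Chil4*, *Retnla*, *Mgl2*, *Clec10a*, *Mrc1*, *Fn1*, *Il4ra* and *Stat6*, and each symbol had 1 row. The libraries came from cultured primary mouse macrophages exposed to the fungus *Candida albicans* for 6 h, 3 from animals labelled METRNL-/- (KO) and 3 from METRNL+/+ (WT) animals. *Metrnl* encodes the secreted protein meteorin-like. Every library was infected, so values compare genotypes under infection, and no uninfected cells are used here. Strain, age, tissue of origin and the deleted part of the gene are not in the labels. Nor do these tie a replicate to an animal, so errors and p-values measure the spread among 3 libraries a genotype, possibly technical. *Chil3*, *Retnla*, *Mgl2*, *Clec10a* and *Fn1* were 2.62-fold to 4.27-fold higher in KO than in WT libraries. *Mrc1* and *Stat6* were higher by smaller amounts, and *Il4ra* overlapped between the genotypes. The scarce *Chil4*, at 4 to 32 reads a library, was also higher in KO, but no change apart from that of *Chil3* was detectable.

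Macrophages exposed to the cytokines interleukin-4 (IL-4) or IL-13 take on the state called alternative activation, associated with tissue repair, helminth infection and allergy. The cytokines bind receptors that contain the IL-4 receptor alpha chain, encoded by *Il4ra*, and Janus kinases on the receptor then phosphorylate the transcription factor STAT6, which enters the nucleus. Its best known mouse targets include the secreted chitinase-like protein Ym1 (*Chil3*), the secreted resistin-like molecule alpha (*Retnla*), and lectins that bind sugars on the cell surface (*Mrc1*, *Mgl2*, *Clec10a*). These genes are also expressed outside that state: *Chil3* in monocytes and neutrophil precursors, *Mgl2* and *Clec10a* in dendritic cells, and *Fn1*, which encodes the matrix protein fibronectin, in fibroblasts and peritoneal macrophages.

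The libraries held 11026529 to 15724897 reads in genes, recovered from the deposited FPKM (fragments scaled by gene length and a library factor). That factor was not in proportion to these reads, and how it was set is unknown. *Chil3* in KO replicate 1, for example, had the highest FPKM but the lowest share of reads of the KO libraries. FPKM and shares of reads can therefore order libraries differently. *Metrnl* RNA stood at 51.2, 63.6 and 62.8 FPKM in KO replicates 1 to 3 and at 93.5, 63.2 and 69.8 FPKM in WT replicates 1 to 3, so it does not check the labels, and KO below means the libraries so labelled. Replicate 1 of each genotype stood apart from replicates 2 and 3 in opposite directions: the Pearson correlation, across 11689 genes, of the deviations of KO replicate 1 and WT replicate 1 from their group means was -0.50. Where leaving out both changed a result on the members or on a named gene of the pathway lists, the value without them is given in most cases. Such a fit keeps only replicates 2 and 3 of each genotype. A gene whose replicate 1 libraries each lie with the other genotype parts by genotype there by construction, so its call restates that pattern. Of the 11689 genes tested (averaging 0.5 FPKM or more), 1833 were higher and 1445 lower in KO (limma on log2(FPKM + 1), adjusted p below 0.05). With each library rescaled to a common total (TPM) over the same genes, 542 were higher and 1161 lower, and the median log2 fold change of all genes moved by -0.07 from 0.03. The labelled cell type was checked against 9 macrophage markers, all present, among them *Lyz2* (lysozyme) at 4431 ± 203 FPKM in KO and 2204 ± 397 FPKM in WT and *Cd14* at 2674 ± 545 FPKM in KO and 1799.7 ± 278 FPKM in WT (SD, n = 3 each). The labels' RNA extraction text speaks of retinas. The 8 retinal markers summed to 0.953 to 1.40 FPKM in KO and 0.771 to 0.923 FPKM in WT libraries, most of it *Pde6b*.

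The 9 genes were chosen by their KO and WT FPKM values, known from an earlier look at these data, so the differences between genotypes are a description and carry no test. The 3 KO values lay above the 3 WT values for 8 of the 9 genes, where 45.6% of all genes tested had groups apart, 25.7% with KO above and 19.9% with KO below WT. Of the 8 genes that passed the filter on low values, 7 were among the genes called higher in KO, where 15.7% of all genes tested were, and 0 were among those called lower, with a background of 12.4%. The selection used these values, so nothing is read from either count. *Chil4*, at a mean of 0.431 FPKM, was below the filter. Log2 differences among the 8 ran from -0.44 for *Il4ra* to 2.10 for *Chil3*, with a median of 1.33. In KO the order of mean FPKM was *Chil3*, *Fn1*, *Retnla*, *Il4ra*, *Stat6*, *Mgl2*, *Mrc1*, *Clec10a* and *Chil4*, with overlapping values between *Il4ra* and *Stat6* and between *Mgl2* and *Mrc1*. In WT *Il4ra* stood ahead of *Retnla*, with overlapping values, and *Mrc1* ahead of *Mgl2*.

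**Figure D1:**
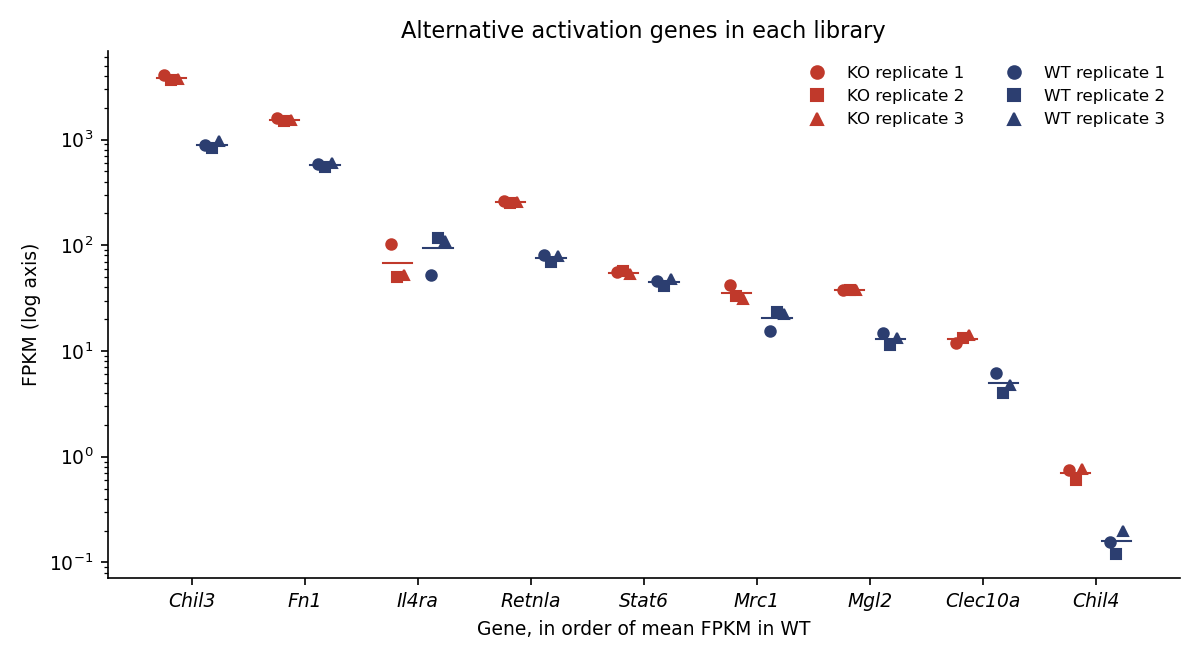
FPKM of the 9 genes on a log axis, with 3 KO libraries (red, left) and 3 WT libraries (blue, right) per gene, marker shape giving the replicate and short lines the group means. A majority, all but *Il4ra*, have all KO points above all WT points, and *Il4ra* has KO replicate 1 beside WT replicates 2 and 3 and WT replicate 1 beside KO replicates 2 and 3.

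**Figure D2:**
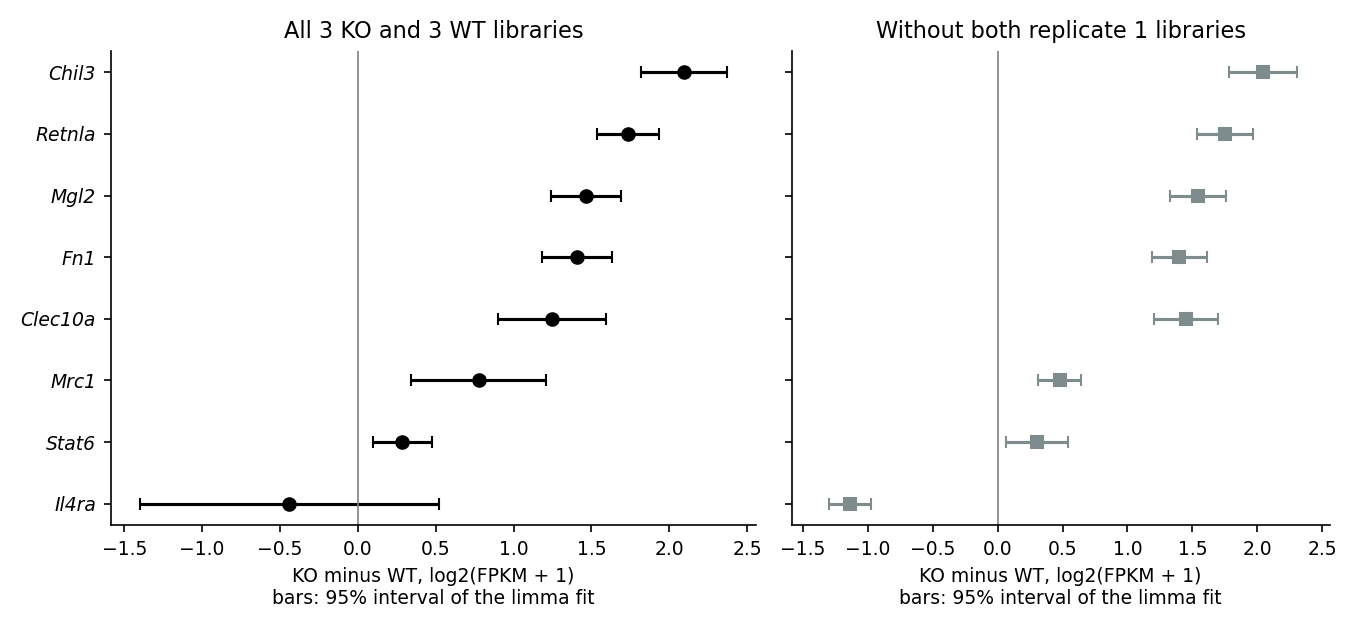
KO minus WT difference in log2(FPKM + 1) for the 8 genes above the filter, with the 95% interval of the limma fit, over all 6 libraries (left) and without both replicate 1 libraries (right). *Chil3* stands highest at 2.10 and 2.04, while *Il4ra* moves from -0.44 with a wide interval to -1.14 with a narrow one. The right panel rests on replicates 2 and 3 of each genotype. For *Il4ra* the libraries left out are those that lay with the other genotype, so its narrow interval follows from their removal.

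*Chil3* (ENSMUSG00000040809, GRCm38 chromosome 3, 106147554 to 106167564, minus strand) was the most abundant of the 9 genes. It stood at 4100.1, 3665 and 3717 FPKM in KO replicates 1 to 3 and at 894, 833 and 959 FPKM in WT replicates 1 to 3. Every KO library was far above every WT library, and the spread within a genotype was small beside the gap. The means were 3827 ± 238 FPKM in KO and 895 ± 62.9 FPKM in WT (SD, n = 3 each), a ratio of 4.27 and a log2 difference of 2.10 ± 0.11 (SE; 95% interval 1.82 to 2.37). The gene took 0.579% to 0.610% of all reads in KO libraries and 0.145% to 0.164% in WT libraries.

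*Chil4* (ENSMUSG00000063779, chromosome 3, 106201490 to 106219507, minus strand) lies beside *Chil3* and encodes the close relative Ym2. It stood at 0.749, 0.607 and 0.758 FPKM in KO replicates 1 to 3 and at 0.155, 0.121 and 0.199 FPKM in WT replicates 1 to 3, a ratio of means of 4.46. These values rest on 27, 27 and 32 reads in KO and on 7, 4 and 7 reads in WT libraries. The groups did not overlap, as for *Chil3*, but the share of *Chil4* in the reads of both genes did. It was 0.0315%, 0.0286% and 0.0352% in KO replicates 1 to 3 and 0.0299%, 0.0250% and 0.0357% in WT replicates 1 to 3, and every library's exact binomial 95% interval held all 6 values. The intervals cover counting error only. A change of *Chil4* apart from that of *Chil3* was not detectable at this depth.

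**Figure D3:**
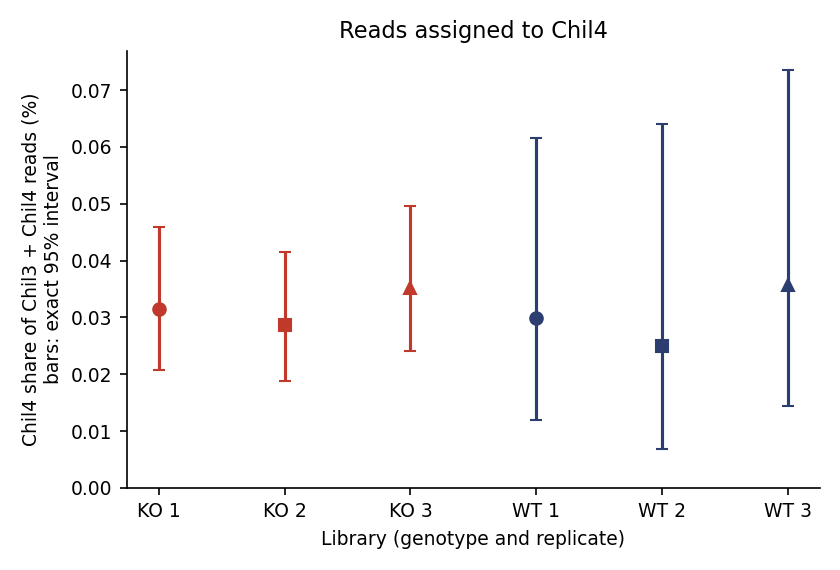
Share of *Chil4* in the summed reads of *Chil3* and *Chil4* in each KO (red) and WT (blue) library, in percent, with exact binomial 95% intervals from a zero-based axis. The 6 shares lie between 0.0250% and 0.0357%, with the KO and WT libraries intermixed.

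The coding sequences of the pair show how far reads can be told apart. In the GENCODE M21 transcripts of GRCm38, 1141 of 1197 aligned coding bases were identical (95.3%), with no gaps. The following run of 136 coding bases (positions 987 to 1122 of the coding sequence of both genes, counted from 1 at the A of the start codon) is the longest without a difference and is shown because a read inside it could come from either gene.

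Shared by Chil3 and Chil4: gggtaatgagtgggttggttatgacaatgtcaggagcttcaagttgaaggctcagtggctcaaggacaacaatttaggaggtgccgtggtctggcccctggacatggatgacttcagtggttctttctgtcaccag

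The stretch of 120 coding bases with the most differences (positions 835 to 954 in both) is shown with its 15 differing bases in capitals, since a read there carries a mark of its gene.

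Chil3: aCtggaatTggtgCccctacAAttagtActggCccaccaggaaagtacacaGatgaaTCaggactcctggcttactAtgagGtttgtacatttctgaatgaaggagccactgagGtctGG
Chil4: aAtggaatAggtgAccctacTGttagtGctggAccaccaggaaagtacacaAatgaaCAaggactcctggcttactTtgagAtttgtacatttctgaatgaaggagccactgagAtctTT

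Of all windows of 50 bases in the *Chil3* coding sequence, 34.8% occurred unchanged in a transcript of another gene (*Chil4* or the pseudogene *Gm6522*), falling to 17.4% for windows of 75 and 7.10% for windows of 100 bases. For *Chil4* the shares were 22.9%, 11.5% and 4.86%. *Gm6522* had 8, 3 and 1 reads in KO replicates 1 to 3 and 1, 0 and 3 in WT replicates 1 to 3. Read length and the handling of reads with several matches are unknown, so *Chil4* values are uncertain.

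*Retnla* (ENSMUSG00000061100, chromosome 16, 48842551 to 48844461, plus strand) stood at 262, 249 and 256 FPKM in KO replicates 1 to 3 and at 80.6, 69.3 and 79.5 FPKM in WT replicates 1 to 3. The lowest KO value was more than the sum of any pair of WT values, and the groups were well apart. The means were 256 ± 6.56 FPKM in KO and 76.5 ± 6.20 FPKM in WT (SD, n = 3 each), a ratio of 3.35 and a log2 difference of 1.73 ± 0.08 (SE; 95% interval 1.53 to 1.93). None of its coding windows of 50 bases occurred unchanged in a transcript of another gene. Its untranslated bases and matches with differing bases were not searched.

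Because *Retnla* and *Chil3* were high in the same libraries, their promoters were searched for the palindromes bound by STAT factors. STAT6 favours TTC and GAA separated by 4 bases, and other STATs favour TTCNNNGAA, with a spacing of 3. The sequence TTGCNNAA, of the kind bound by C/EBP factors, and GAGGAA, the core of PU.1 sites, were searched too, all on both strands. RefSeq promoter windows of 300 bases (GRCm38.p6) were found for 7 of the 9 genes, the others being *Clec10a* and *Fn1*. The bases upstream of the annotated starts are shown for the secreted effectors, 5′ to 3′ on the gene's strand, with matches to the palindromes of either spacing and to TTGCNNAA in capitals.

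Retnla, chr16:48842359-48842550, plus strand: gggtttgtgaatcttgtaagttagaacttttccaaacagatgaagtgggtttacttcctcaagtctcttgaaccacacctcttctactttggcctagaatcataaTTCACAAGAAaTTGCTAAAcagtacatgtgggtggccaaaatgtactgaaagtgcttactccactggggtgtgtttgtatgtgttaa
Chil3, chr3:106167565-106167814, minus strand: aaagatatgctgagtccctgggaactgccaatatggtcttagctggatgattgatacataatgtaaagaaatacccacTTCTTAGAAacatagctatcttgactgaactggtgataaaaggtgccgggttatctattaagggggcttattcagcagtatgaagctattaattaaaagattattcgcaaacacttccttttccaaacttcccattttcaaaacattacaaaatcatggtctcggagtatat
Chil4, chr3:106219508-106219729, minus strand: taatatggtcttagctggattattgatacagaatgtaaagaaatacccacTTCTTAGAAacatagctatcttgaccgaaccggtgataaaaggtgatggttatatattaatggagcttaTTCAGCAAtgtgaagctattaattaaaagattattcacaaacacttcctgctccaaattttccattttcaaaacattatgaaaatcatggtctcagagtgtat

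*Retnla* had the only one of the 7 windows with the wider palindrome, as TTCACAAGAA at 145 to 136 bases upstream of its RefSeq start, and 6.95% of all 32851 windows hold that motif. Directly beside it, 1 base on, stood TTGCTAAA, a match to TTGCNNAA, which 10.8% of all windows hold. *Chil3* and *Chil4* both carried TTCTTAGAA, a match to TTCNNNGAA, which 8.30% of all windows hold, and only *Chil4* also carried a match to TTGCNNAA, on the other strand. Their windows were alike at 251 of 271 aligned bases (92.6%). *Mrc1*, *Mgl2*, *Il4ra* and *Stat6* had none of these 3 motifs in their windows. GAGGAA was in the windows of *Mrc1*, *Stat6*, *Mgl2* and *Retnla*, against 28.3% of all windows. Matches describe letters in a window and are not evidence of binding.

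*Mgl2* (ENSMUSG00000040950, chromosome 11, 70130329 to 70137550, plus strand) and *Clec10a* (ENSMUSG00000000318, chromosome 11, 70156197 to 70170834, plus strand) are neighbours that encode lectins for galactose and N-acetylgalactosamine. *Mgl2* stood at 37.7, 37.4 and 38.1 FPKM in KO replicates 1 to 3 and at 14.7, 11.4 and 13.2 FPKM in WT replicates 1 to 3. The KO libraries were almost equal and all lay above WT, with a ratio of means of 2.88 and a log2 difference of 1.46 ± 0.09 (SE; 95% interval 1.24 to 1.69). *Clec10a* stood at 11.9, 13.2 and 14.2 FPKM in KO replicates 1 to 3 and at 6.22, 4.04 and 4.74 FPKM in WT replicates 1 to 3, a ratio of 2.62 and a log2 difference of 1.25 ± 0.14 (SE; 95% interval 0.90 to 1.59). WT replicate 1 was the highest WT library for both lectins. Their coding sequences were identical at 812 of 902 aligned bases (90.0%), and 22.1% of the *Mgl2* and 27.6% of the *Clec10a* windows of 50 coding bases occurred in the other gene, so part of the reads could belong to either.

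*Mrc1* (ENSMUSG00000026712, chromosome 2, 14229392 to 14332057, plus strand) encodes the mannose receptor CD206, which takes up mannose-rich sugars including those of fungal cell walls. It stood at 41.9, 33.3 and 31.3 FPKM in KO replicates 1 to 3 and at 15.6, 23.5 and 22.3 FPKM in WT replicates 1 to 3. The groups did not overlap, but the gap between KO replicate 3 and WT replicate 2 was smaller than the range within KO and about that within WT. The ratio of means was 1.73 and the log2 difference 0.78 ± 0.18 (SE; 95% interval 0.34 to 1.21). KO replicate 1 was the highest and WT replicate 1 the lowest of all libraries. Without both, the ratio was 1.41 and the log2 difference 0.48 ± 0.06 (SE).

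*Fn1* (ENSMUSG00000026193, chromosome 1, 71585520 to 71653200, minus strand) stood at 1596, 1491 and 1534 FPKM in KO replicates 1 to 3 and at 593, 545 and 601 FPKM in WT replicates 1 to 3. No library approached those of the other genotype, and the ratio of means was 2.66, with a log2 difference of 1.41 ± 0.09 (SE; 95% interval 1.19 to 1.63). As a long gene it took 1.62% to 1.80% of all reads in KO libraries and 0.680% to 0.776% in WT libraries, more than any other of the 9 genes.

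Genes of fibronectin receptors and matrix partners, a list that excludes *Fn1*, were called more often higher than lower. Of 14 tested, 6 rose and 1 fell (limma, adjusted p below 0.05), with a median log2 fold change of 0.27 beside 0.03 for all genes tested, of which 15.7% rose and 12.4% fell. The integrin gene *Itga5*, whose product pairs with integrin beta 1 as the classical fibronectin receptor, rose to 118 ± 1.81 FPKM in KO, against 77.9 ± 6.86 FPKM in WT (limma adjusted p = 0.0043). *Itgb5*, an integrin chain that pairs with alpha V, rose to 9.24 ± 0.693 FPKM in KO, against 5.01 ± 0.308 FPKM in WT (limma adjusted p = 0.00149; SD, n = 3 each). The partner chains *Itgb1* and *Itgav* rose 1.30-fold and 1.37-fold, *Tgfb1*, which encodes the growth factor TGF-beta 1, 1.30-fold and the matrix protease gene *Mmp14* 1.55-fold, while *Tgfbi* was 1.33-fold lower in KO. The calls of these 5 genes were less stable: each was lost without at least 1 library, with limma adjusted p of 0.0510 for *Itgb1* without KO replicate 3, and as high as 0.0628 for *Itgav* and 0.0602 for *Tgfb1* (without KO replicate 2, KO replicate 3 or WT replicate 3), 0.0697 for *Mmp14* (without any library but KO replicate 1) and 0.0947 for *Tgfbi* (without any one of the 6). In TPM over the same genes 3 of these genes rose and 0 fell, and without both replicate 1 libraries 8 rose and 3 fell, where 19.3% of all genes tested rose and 16.3% fell.

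*Il4ra* (ENSMUSG00000030748, chromosome 7, 125552120 to 125579474, plus strand), the receptor chain shared by IL-4 and IL-13, did not follow the other members. It stood at 103, 49.7 and 52.5 FPKM in KO replicates 1 to 3 and at 52.3, 117 and 110.4 FPKM in WT replicates 1 to 3. KO replicate 1 sat with WT replicates 2 and 3, and WT replicate 1 sat with KO replicates 2 and 3, so the genotypes overlapped. The log2 difference was -0.44 ± 0.40 (SE; 95% interval -1.40 to 0.52). Without both replicate 1 libraries it was -1.14 ± 0.06 (SE), with means of 51.1 FPKM in KO and 114 FPKM in WT. The libraries left out are those that lay with the other genotype, and only replicates 2 and 3 remain. The gap and its small error therefore follow from the choice of libraries, and no genotype effect is read from them.

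Within a genotype, which the selection of the genes did not use, *Il4ra* in replicate 1 differed from the mean of replicates 2 and 3 by 0.99 log2 units in KO and by -1.11 in WT. Among 11689 genes, 74 (0.633%) moved at least as far in those directions, and 3 moved at least as far in the opposite ones. The same difference was at most 0.15 in size for *Chil3*, *Retnla*, *Fn1* and *Stat6* in both genotypes. It was 0.24 in WT and near 0 in KO for *Mgl2*. For *Clec10a* it was -0.19 in KO and 0.42 in WT, and for *Mrc1* 0.36 in KO and -0.53 in WT, which alone among the remaining members shared the signs of *Il4ra*. The pattern of *Il4ra*, with KO replicate 1 and WT replicates 2 and 3 each above the other libraries, was found in 9.10% of all genes tested. In FPKM it was found in 6 of 13 genes of IL-4 and IL-13 signalling (*Il13ra1*, *Jak1*, *Jak2*, *Socs1*, *Socs3* and *Ptpn1*), in 8 of 13 classical activation genes and in 5 of 32 other alternative activation genes. For *Il13ra1* it rests on the deposited scaling, with 1054 of 14772746 reads in KO replicate 1 and 1145 of 14309247 in WT replicate 1. *Jak2*, a Janus kinase used by the IL-13 receptor, stood at 102, 34.8 and 33.3 FPKM in KO replicates 1 to 3 and at 33.3, 83.7 and 79.3 FPKM in WT replicates 1 to 3. The inflammatory cytokine gene *Il6*, named after its values were seen, stood at 203, 15.4 and 14.9 FPKM in KO and at 12.5, 89.0 and 80.1 FPKM in WT in the same order.

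**Figure D4:**
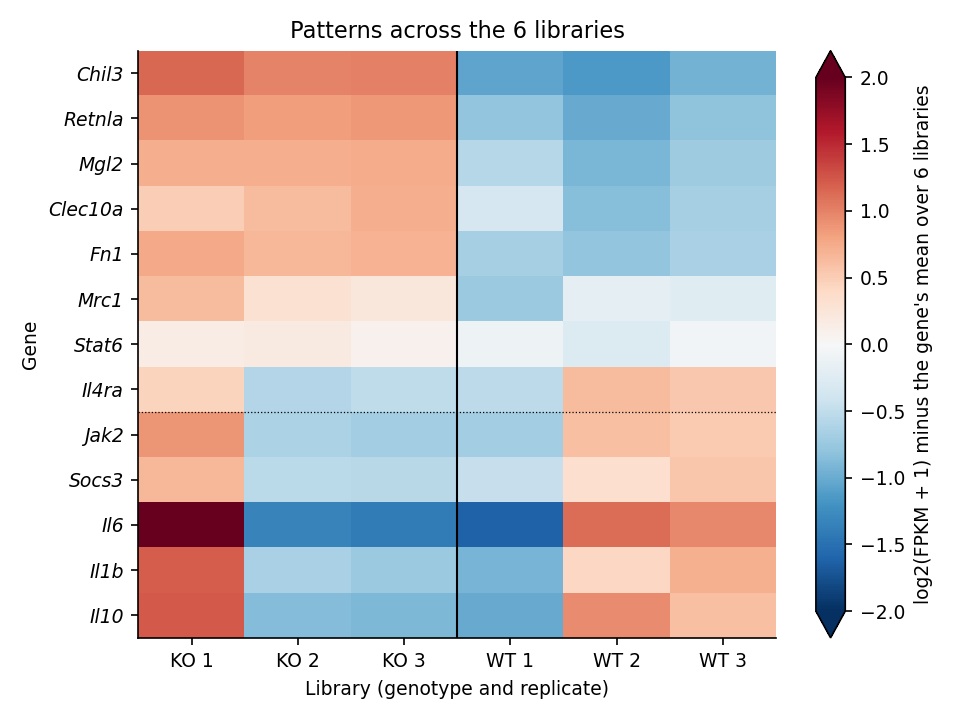
Deviation of log2(FPKM + 1) from each gene's mean over the 6 libraries (colour, clipped at 2 log2 units either way), with KO libraries left and WT libraries right of the line. The members above *Il4ra* part by genotype, while *Il4ra* and the genes below the dotted line, chosen after their values were seen, are high in KO replicate 1 and WT replicates 2 and 3.

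*Stat6* (ENSMUSG00000002147, chromosome 10, 127642986 to 127660957, plus strand) stood at 55.3, 56.5 and 52.9 FPKM in KO replicates 1 to 3 and at 46.3, 41.0 and 47.6 FPKM in WT replicates 1 to 3. All KO values were above all WT values, by a small margin, with a ratio of means of 1.22 and a log2 difference of 0.29 ± 0.08 (SE; 95% interval 0.10 to 0.47). As a share of all reads the genotypes overlapped, at 0.0211% to 0.0250% in KO and 0.0193% to 0.0228% in WT libraries. The 3′ end of *Stat6* overlaps that of *Nab2* on the other strand over a short stretch only, from 127660918 to 127660957. Without strand information reads in that stretch cannot be told apart.

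The other genes of the IL-4 and IL-13 pathway went both ways. Of 13 tested, 2 rose and 2 fell (limma, adjusted p below 0.05), with a median log2 fold change of -0.20 beside 0.03 for all genes tested, and 28.0% of all genes tested were called in either direction. The kinase gene *Jak3*, whose product binds the common gamma chain, fell to 5.86 ± 0.509 FPKM in KO, against 9.78 ± 1.15 FPKM in WT (limma adjusted p = 0.00631). The common gamma chain gene *Il2rg* itself rose 1.22-fold (limma adjusted p = 0.0382) and the signalling adaptor gene *Irs2* rose 1.59-fold (0.0321), while the phosphatase gene *Ptpn6* fell 1.33-fold (0.0341). These 3 calls depended on the libraries used: *Il2rg* was lost without any one of the 6 (limma adjusted p from 0.0576 to 0.104), *Irs2* without any but WT replicate 3 (up to 0.101), and *Ptpn6* without KO replicate 2 or 3 or WT replicate 2 or 3 (up to 0.107). *Il13ra1*, the partner chain of *Il4ra*, stood at 20.6 ± 1.48 FPKM in KO and 21.9 ± 2.37 FPKM in WT, and *Jak1* at 61.9 ± 11.4 FPKM in KO and 61.4 ± 7.44 FPKM in WT. *Tyk2* stood at 5.31 ± 0.196 FPKM in KO and 6.25 ± 0.326 FPKM in WT (limma adjusted p = 0.0708). The feedback inhibitors did not pass over all 6 libraries: *Socs1* at 5.76 ± 3.59 FPKM in KO and 15.5 ± 5.78 FPKM in WT (limma adjusted p = 0.0552), *Cish* at 16.9 ± 2.02 FPKM in KO and 12.1 ± 2.09 FPKM in WT (0.0507), *Socs3* at 696 ± 367 FPKM in KO and 813 ± 269 FPKM in WT (0.649) and the phosphatase gene *Ptpn1* at 40.4 ± 14.4 FPKM in KO and 46.0 ± 7.69 FPKM in WT (0.547). Of the ligands, *Il4* averaged 0.412 ± 0.0751 FPKM in KO and 0.633 ± 0.636 FPKM in WT, and *Il13*, below the filter, lay between 0.0649 and 0.111 FPKM in KO and between 0.0518 and 0.634 FPKM in WT libraries. Without both replicate 1 libraries 0 of the 13 rose and 6 fell, where 19.3% of all genes tested rose and 16.3% fell. In that fit *Jak3* and *Ptpn6* kept their calls, *Il2rg* and *Irs2* lost theirs, and *Socs1*, *Socs3*, *Ptpn1* and *Jak2* were called lower. The genes newly called have the pattern of *Il4ra*, which sets their direction there. The log2 fold change was then -2.06 for *Socs1* (limma adjusted p = 0.00166), -0.99 for *Socs3* (0.00316), -0.63 for *Ptpn1* (0.00595) and -1.23 for *Jak2* (8.61e-04). *Socs1* was also called lower in TPM over the same genes (limma adjusted p = 0.0226), with voom on recovered reads (0.0289) and without KO replicate 1 (0.0173) or WT replicate 1 (0.0378). In the other direction, *Cish* had all KO values above all WT values. It was called higher with a 2 FPKM filter (limma adjusted p = 0.0439), voom on recovered reads (0.0306) or without WT replicate 3 (0.0296).

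Other genes commonly listed with alternative activation split in both directions. Of 32 tested, 8 rose and 9 fell (limma, adjusted p below 0.05), with a median log2 fold change of 0.15 beside 0.03 for all genes tested, of which 15.7% rose and 12.4% fell. The haemoglobin scavenger receptor gene *Cd163* rose to 2.42 ± 0.172 FPKM in KO, against 0.665 ± 0.102 FPKM in WT (limma adjusted p = 8.05e-04). The growth factor gene *Igf1* rose 1.95-fold (0.00276), the folate receptor gene *Folr2* 1.98-fold (0.0073) and the transcription factor gene *Egr2* 2.63-fold, to 146 ± 25.7 FPKM in KO, against 55.7 ± 15.8 FPKM in WT (0.00756). In the other direction *Ccl22*, a chemokine that draws regulatory and helper T cells, fell to 16.8 ± 0.922 FPKM in KO, against 67.4 ± 15.5 FPKM in WT (limma adjusted p = 9.91e-04). *Ccl17*, which acts on the same receptor, was 3.31-fold lower (0.00222), *Pdcd1lg2*, which encodes the inhibitory ligand PD-L2, 3.20-fold lower (4.06e-04) and the lipoxygenase gene *Alox15* 1.81-fold lower (0.00431). The calls of these 8 genes held when any 1 library was left out. Without both replicate 1 libraries 13 of the 32 rose and 10 fell, where 19.3% of all genes tested rose and 16.3% fell.

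*Irf4*, a transcription factor used in alternative activation, stood at 3.44, 7.20 and 6.85 FPKM in KO replicates 1 to 3 and at 12.7, 32.4 and 17.1 FPKM in WT replicates 1 to 3. It was called lower (limma adjusted p = 0.0242), but not without KO replicate 1 (0.0534), KO replicate 2 (0.0529), KO replicate 3 (0.0569) or WT replicate 3 (0.0642). *Arg1*, the arginase that is the most used marker of the state, stood at 173, 244 and 228 FPKM in KO replicates 1 to 3 and at 261, 179 and 154 FPKM in WT replicates 1 to 3. The genotypes overlapped, with a log2 fold change of 0.14 and a 95% interval of -0.40 to 0.68 (limma adjusted p = 0.69). Without both replicate 1 libraries *Arg1* was called higher in KO, with a log2 fold change of 0.50 (limma adjusted p = 0.0173). *Pparg*, a nuclear receptor of the programme, was below the filter, at 0.291 to 0.622 FPKM in KO and 0.108 to 0.317 FPKM in WT libraries.

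**Figure D5:**
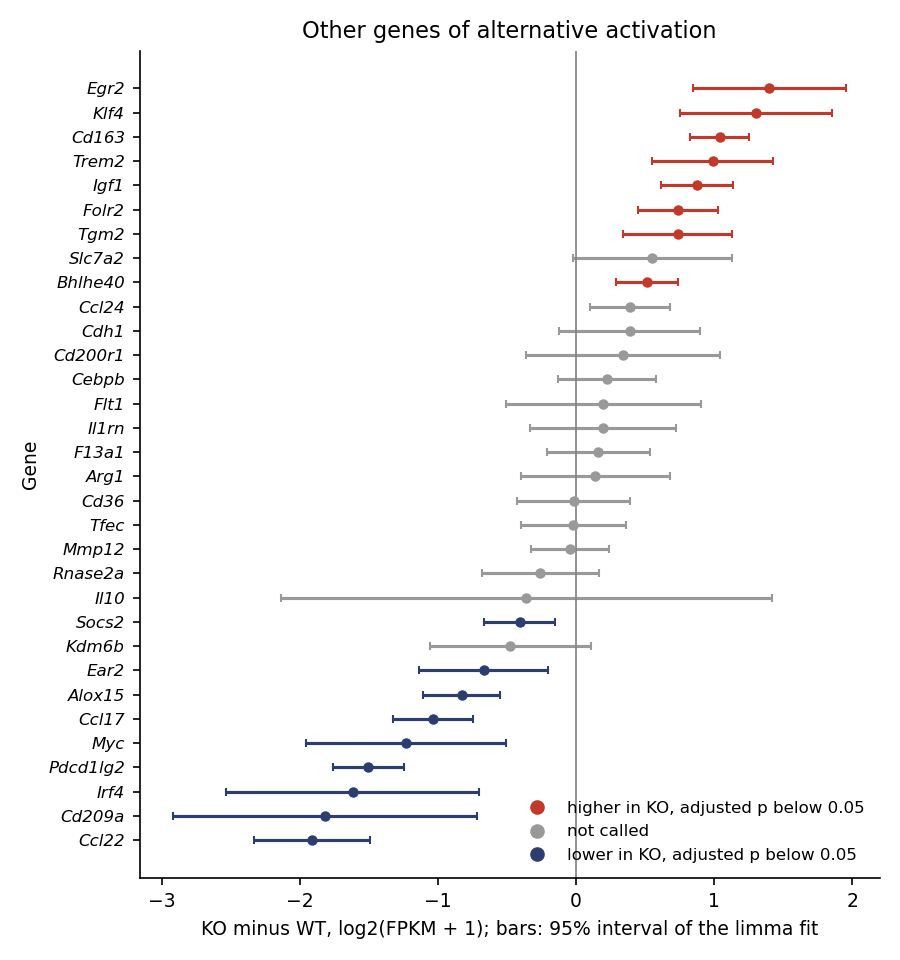
KO minus WT difference in log2(FPKM + 1) with the 95% interval of the limma fit for the 32 tested genes of alternative activation other than the members, in order of size. Red marks the 8 called higher in KO, blue the 9 called lower and grey the 15 not called.

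Genes of classical, interferon-type activation gave 0 higher and 4 lower of 13 tested, with a median log2 fold change of -0.42 beside 0.03 for all genes tested, of which 15.7% were higher and 12.4% lower. The transcription factor gene *Irf5* fell to 21.9 ± 1.23 FPKM in KO, against 36.9 ± 1.82 FPKM in WT (limma adjusted p = 0.00129). *Cxcl10* was 8.51-fold and *Irf1* 2.26-fold lower in KO, and both calls were lost without KO replicate 2 or 3 or WT replicate 2 or 3, that of *Irf1* also without WT replicate 1 (limma adjusted p from 0.0508 to 0.0748). The 9 genes not called included *Nos2*, *Il1b*, *Tnf* and *Il6*, which had the pattern of *Il4ra* across libraries. Without both replicate 1 libraries they were called lower, with log2 fold changes of -2.66, -1.26, -0.82 and -2.40. The pattern puts WT above KO in the libraries that remain, so these calls restate it and are no further support. Without both replicate 1 libraries 11 of the 13 were called lower and 0 higher, where 16.3% of all genes tested were lower and 19.3% higher. That count includes genes with the same pattern, which was found in 8 of the 13.

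Relatives of the members in the same gene families gave 1 gene higher and 1 lower of 5 tested for chitinases and resistins (median log2 fold change 0.12), and 0 higher and 1 lower of 2 tested for lectins (median -0.77), where 15.7% of all genes tested were higher and 12.4% lower. *Chil1*, which encodes another chitinase-like protein, was 1.96-fold lower in KO, at 8.19 ± 1.44 FPKM against 16.0 ± 3.11 FPKM in WT (limma adjusted p = 0.0133). That call was lost without KO replicate 2, WT replicate 2 or WT replicate 3 (adjusted p from 0.0502 to 0.0518). The lysosomal chitobiase gene *Ctbs* rose 1.58-fold (limma adjusted p = 0.0102), a call lost in TPM over the same genes (0.106). *Chid1* stood at 1.24 ± 0.184 FPKM in KO and 1.06 ± 0.0472 FPKM in WT (limma adjusted p = 0.39). The resistin-like gene *Retnlg*, known from neutrophils, stood at 33.1 ± 4.11 FPKM in KO and 46.2 ± 10.3 FPKM in WT (limma adjusted p = 0.113), and the resistin gene *Retn* at 1.55 ± 0.665 FPKM in KO and 0.484 ± 0.238 FPKM in WT (0.051). *Retnlb* had no reads in any library. Of the lectin relatives, *Ly75* stood at 11.5 ± 1.34 FPKM in KO and 11.7 ± 1.75 FPKM in WT and was called lower without both replicate 1 libraries, by a log2 fold change of -0.22 (limma adjusted p = 0.0436), and the scavenger lectin gene *Colec12* was 3.24-fold lower in KO, at 5.35 ± 0.718 FPKM against 17.3 ± 3.29 FPKM in WT (limma adjusted p = 0.00119).

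Markers of other cells also differed between the genotypes, and in bulk RNA fewer cells of a type and less RNA per cell cannot be told apart. Of all genes tested, 15.7% were called higher and 12.4% lower, the background for the counts that follow. The 9 macrophage markers summed to 8478 to 9155 FPKM in KO and 4735 to 5531 FPKM in WT libraries, with 4 called higher, 1 lower and 4 not called. All 8 B cell markers fell, their sum being 19.1 to 24.4 FPKM in KO and 344 to 420.0 FPKM in WT libraries, led by *Ighm* and *Cd79a*. Dendritic cells, which also express *Mgl2* and *Clec10a*, had 4 of 7 tested markers lower and 0 higher, with sums of 76.5 to 88.1 FPKM in KO and 143 to 194 FPKM in WT libraries, among them *Fscn1* at 11.8 ± 2.68 FPKM in KO and 64.1 ± 18.2 FPKM in WT, while *Itgax* did not pass. Without both replicate 1 libraries *Itgax* was called higher, with a log2 fold change of 0.32 (limma adjusted p = 0.0342). Mesothelial and fibroblast markers, which go with *Fn1* in other tissues, had 4 of 7 lower and 0 higher, with sums of 7.44 to 9.33 FPKM in KO and 16.2 to 19.0 FPKM in WT libraries. Monocytes and neutrophils, which also express *Chil3*, had 2 of 4 and 2 of 8 tested markers lower and 0 higher, with sums of 21.9 to 25.4 FPKM in KO and 36.5 to 41.6 FPKM in WT libraries for monocytes and of 685 to 801 FPKM in KO and 914 to 1235 FPKM in WT libraries for neutrophils. *Plac8*, a monocyte marker, stood at 1.39 ± 0.337 FPKM in KO and 14.9 ± 2.33 FPKM in WT. The monocyte marker *F13a1*, at 17.6 ± 3.12 FPKM in KO and 15.6 ± 2.12 FPKM in WT, did not pass (limma adjusted p = 0.484). Without both replicate 1 libraries *F13a1* was called higher, with a log2 fold change of 0.40 (limma adjusted p = 0.0238). *S100a8*, of neutrophils, stood at 361 ± 68.6 FPKM in KO and 734 ± 211 FPKM in WT. The call of *S100a8* was lost without KO replicate 2 or 3 or WT replicate 2 or 3 (limma adjusted p up to 0.0987). The other neutrophil gene called lower was *Mmp8*, and those that did not pass had log2 fold changes such as 0.06 for *S100a9*, 0.01 for *Csf3r* and 0.56 for *Ngp*, these last, like *Mmp8*, named after their values were seen. The neutrophil granule gene *Elane* was at 0 in 1 KO and 3 WT libraries. T and NK cell, mast cell and basophil, and eosinophil lists had 4 of 4, 4 of 4 and 1 of 1 tested markers lower, with sums of at most 4.07, 1.53 and 0.855 FPKM in KO and of at least 11.1, 6.79 and 3.71 FPKM in WT libraries. The eosinophil genes *Ear1* and *Prg2* were at 0 in all 3 KO libraries and in 3 and 2 WT libraries.

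Against the macrophage marker sum of the same library, a comparison added after seeing the data, *Chil3* was 44.8%, 43.2% and 43.8% in KO replicates 1 to 3 and 16.7%, 17.6% and 17.3% in WT replicates 1 to 3, a ratio of 2.55. *Retnla* was 2.87%, 2.94% and 3.02% in KO replicates 1 to 3, and 1.46% and 1.44% in WT replicates 2 and 3, with WT replicate 1 slightly above these. The ratio was 1.73 for *Mgl2*, 1.59 for *Fn1* and 1.58 for *Clec10a*, all with KO above WT in every library. *Mrc1* overlapped at a ratio of 1.02, and *Stat6* turned round, with all KO values below all WT values at a ratio of 0.731. *Lyz2* makes up much of this sum. The part of cell composition in the differences of the members and of the genes in the other lists, rising or falling, was not tested.

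Over the 6 libraries the genes whose log2(FPKM + 1) was most like that of *Chil3*, among genes averaging 2 FPKM or more, were *Smpdl3a*, *Vps35*, *Mid1-ps1*, *Sesn2* and *Hps5*, with Pearson r from 0.9987 to 0.9994. For *Retnla* they were *Sirpa*, *Hspa9*, *Samd11*, *Hps5* and *Smpdl3a*, with r from 0.9985 to 0.9989. *Smpdl3a*, a secreted phosphodiesterase gene, averaged 147 ± 2.75 FPKM in KO and 61.3 ± 1.94 FPKM in WT (SD, n = 3 each), and *Sesn2*, a stress-inducible gene, 64.7 ± 3.72 FPKM in KO and 11.6 ± 0.225 FPKM in WT. The points share the gap between genotypes, which sets such coefficients near 1, as it does among the members: *Chil3* had r = 0.9996 with *Fn1*, 0.9986 with *Retnla*, 0.9929 with *Mgl2*, 0.9638 with *Clec10a* and -0.38 with *Il4ra*.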

How the data were processed

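The authors deposited FPKM per gene for 3 KO and 3 WT libraries, with gene lengths. The submitters' processing notes name GRCm38 (mm10). The aligner, the counter, the annotation and whether strand was used are unknown here. Multiplied by gene length, 100% of the deposited FPKM were whole multiples of a library's smallest step (tolerance 0.05 of a step), and these multiples were taken as reads.

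Groups and replicate numbers came from the titles. Tests used limma 3.58.1 in R 4.3.3 on log2(FPKM + 1) over the 11689 genes averaging 0.5 FPKM or more, genotype as the only term, eBayes with trend, Benjamini-Hochberg adjusted p below 0.05. The scale understates fold changes of low genes; folds are ratios of mean FPKM. Repeated symbols took the row with the highest mean. The procedure was tested on simulated data, which lacked the deviations of the replicate 1 libraries and the deposited scaling, so it does not measure errors under these.

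The members, gene lists and tests were chosen with earlier results of these data known. Named were the members, *Metrnl*, all IL-4 pathway and family genes at 1 FPKM or more, *Arg1*, *Irf4* and *Pparg*, up to 8 called genes per other list, up to 2 top markers per cell type, and the 5 genes most like *Chil3* and *Retnla*; not all are reported, 1 called classical activation gene is not reported here, and others are said to be chosen later. Alternatives were TPM, a smaller pseudocount (0.1), filters at 0 and at 2 FPKM, quantile normalization, eBayes without trend or robust, a replicate block, and leaving out libraries; voom on recovered reads, TPM over the same genes and division by macrophage markers were added after seeing the data. Motifs and windows were searched with Python 3.11.15 and Biopython 1.88.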

Additional observations from a re-analysis of the deposited data

How the results depend on the processing

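The replicate numbers did not pair the libraries: deviations of same-numbered libraries correlated at -0.50, -0.19 and -0.16, and with the replicate block 479 genes were higher and 604 lower (1083 in all, against 3278). In that fit 8 other alternative activation genes, 2 fibronectin partners, 1 pathway gene, 1 classical gene and 0 family relatives were called. TPM gave 1835 called genes of 15259 tested and TPM over the same genes 1703 of 11689, with 3 fibronectin partners and 1 family relative in each. Quantile normalization gave 4 family relatives among 3070 called genes of 11689. No filter gave 1 pathway gene among 2424 called genes of 28477. Without both replicate 1 libraries 11 classical genes (0 higher, 11 lower), 11 fibronectin partners (8 higher, 3 lower) and 2 lectin relatives (0 higher, 2 lower) were called. In that fit 4160 of all 11689 genes tested were called, 19.3% higher and 16.3% lower. Leaving out 1 library gave 1763 to 3018 called genes, the lowest without KO replicate 2 (1763), KO replicate 3 (1766), WT replicate 3 (1941) and WT replicate 2 (2156). Over these fits 1 to 3 pathway genes, 12 to 16 other alternative activation genes, 1 to 4 classical genes, 1 to 3 family relatives, 1 lectin relative and 2 to 7 fibronectin partners were called. Of the 8 members tested 5 to 6 were called higher, where 912 to 1681 of all 11689 genes tested were. The members were chosen by this contrast, so nothing is read from their calls. The log2 differences of *Chil3*, *Retnla*, *Mgl2*, *Clec10a* and *Fn1* were positive in every fit. Divided by macrophage markers, where no test was run, their log2 differences were 1.35, 1.00, 0.79, 0.67 and 0.67. The log2 difference of *Stat6* was -0.45 with that division, and its call was lost in both TPM fits, with quantile normalization, with no filter, with the block, without any 1 library and without both replicate 1 libraries. That of *Mrc1* was lost with no filter, with the block and without KO replicate 1, KO replicate 2 or WT replicate 3. The cause was not tested. *Chil4*, at 4 to 32 reads a library, is limited by depth.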
